A study of Mus musculus with 6 samples.

Results

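The TAM receptors and the genes around them that recognise phosphatidylserine were followed in mouse macrophages grown from bone marrow, after they met medium from dying or from healthy chondrocytes. The 9 members were matched by gene symbol in a deposited table of 52550 genes: the receptor tyrosine kinases Mertk, Axl and Tyro3, the bridging ligands Gas6, Pros1 and Mfge8, the phosphatidylserine receptor Timd4, the engulfment adaptor Gulp1 and the engulfment receptor Megf10. Each symbol had a single row, and all 9 passed the filter on low counts. All cells came from C57BL/6 bone marrow, were freed of red cells and spent 7 days in M-CSF, a macrophage growth factor, at 25 ng/ml. The C CM group (3 libraries) then received culture medium of normal chondrocytes, and the AC CM group (3 libraries) received culture medium of apoptotic chondrocytes. The sources used here give no dose, no length of exposure and no inducer of apoptosis. Neither group was left without chondrocyte medium, so the values compare the 2 media with each other.

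Dying cells move phosphatidylserine to the outer leaflet of their membrane, where it serves as a signal to be eaten. MERTK, AXL and TYRO3 do not touch this lipid directly. GAS6 and protein S (the product of Pros1) bind it through a domain modified with the help of vitamin K, and bridge it to the kinases, which drive engulfment and dampen inflammatory signalling. MFG-E8 bridges the same lipid to integrins that contain the alpha v chain. TIM-4, the product of Timd4, binds it directly and tethers the corpse. GULP1 is an adaptor behind engulfment receptors, and MEGF10 is an engulfment receptor best known from astrocytes.

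Gene counts summed to between 65630784 and 80105872 per library. The 8 macrophage markers checked, among them Adgre1, Cd68 and Csf1r, summed to 20681 to 22733 CPM (a gene's counts scaled to a common library size) after C CM and 19606 to 20548 CPM after AC CM, with 1 higher, 2 lower and 5 not called. Lyz2 alone held 11435 ± 564 and 10838 ± 464 CPM of that sum. Csf1r, the M-CSF receptor gene, was 1.64-fold lower after AC CM (3317 ± 89.9 to 2021 ± 84.0 CPM), Cd14 was at -0.30 and Mrc1 at 0.54 on the log2 scale. Markers of other cells were present and differed between the groups. Neutrophil markers (7 of 7 lower) summed to 823 to 957 CPM after C CM and 169 to 186 after AC CM, and dendritic cell markers (6 of 7 lower) to between 13.0 and 16.1 CPM and between 2.74 and 3.27 CPM. Lymphocyte markers (7 of 7 tested lower) summed to 26.0 to 31.9 and 9.95 to 10.2, and fibroblast markers (5 of 8 lower) to 4306 to 5314 and 3511 to 3597. Hepatocyte markers (12, with 0 called) summed to 45.9, 1.64 and 0.597 CPM in C CM replicates 1, 2 and 3. In AC CM replicates 1, 2 and 3 they summed to 53.2, 618 and 1450 CPM. Chondrocyte markers (2 of 7 tested higher) summed to 71.7 to 83.7 and 109 to 112 CPM, with Cnmd at 0 in every library. Endothelial markers (4 of 5 lower, and Kdr higher) summed to 81.9 to 91.9 CPM after C CM and 59.9 to 63.8 after AC CM. In such bulk samples, fewer cells of a type and less RNA per cell cannot be told apart. Whether replicates were separate animals, separate cultures or technical repeats is not stated, so p-values measure only the spread between these 6 libraries.

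After AC CM, 5 of the 9 members fell and 0 rose. They were Timd4, 5.97-fold lower, Mfge8, 2.27-fold lower, Axl, 1.62-fold lower, Mertk, 1.32-fold lower, and Pros1, 1.29-fold lower. Gas6, the most abundant of the 9, did not pass the test, nor did Tyro3, Gulp1 and Megf10. The test was edgeR's quasi-likelihood test on 17863 genes, with a call at a Benjamini-Hochberg adjusted p under 0.05. By the same rule 26.5% of all genes tested were called, 13.3% higher and 13.3% lower. The share of members called lower was 55.6%, a description only, since the members were chosen with earlier results known. The median log2 fold change (AC CM over C CM) was -0.40 over the 9 members and -0.01 over all genes tested. A 0 for rises rests on edgeR. At an unadjusted p under 0.05 the count was also 0, as it was by DESeq2 and limma-voom. Without C CM replicate 1, Gas6 was called higher and the count was 1.

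**Figure D1:**
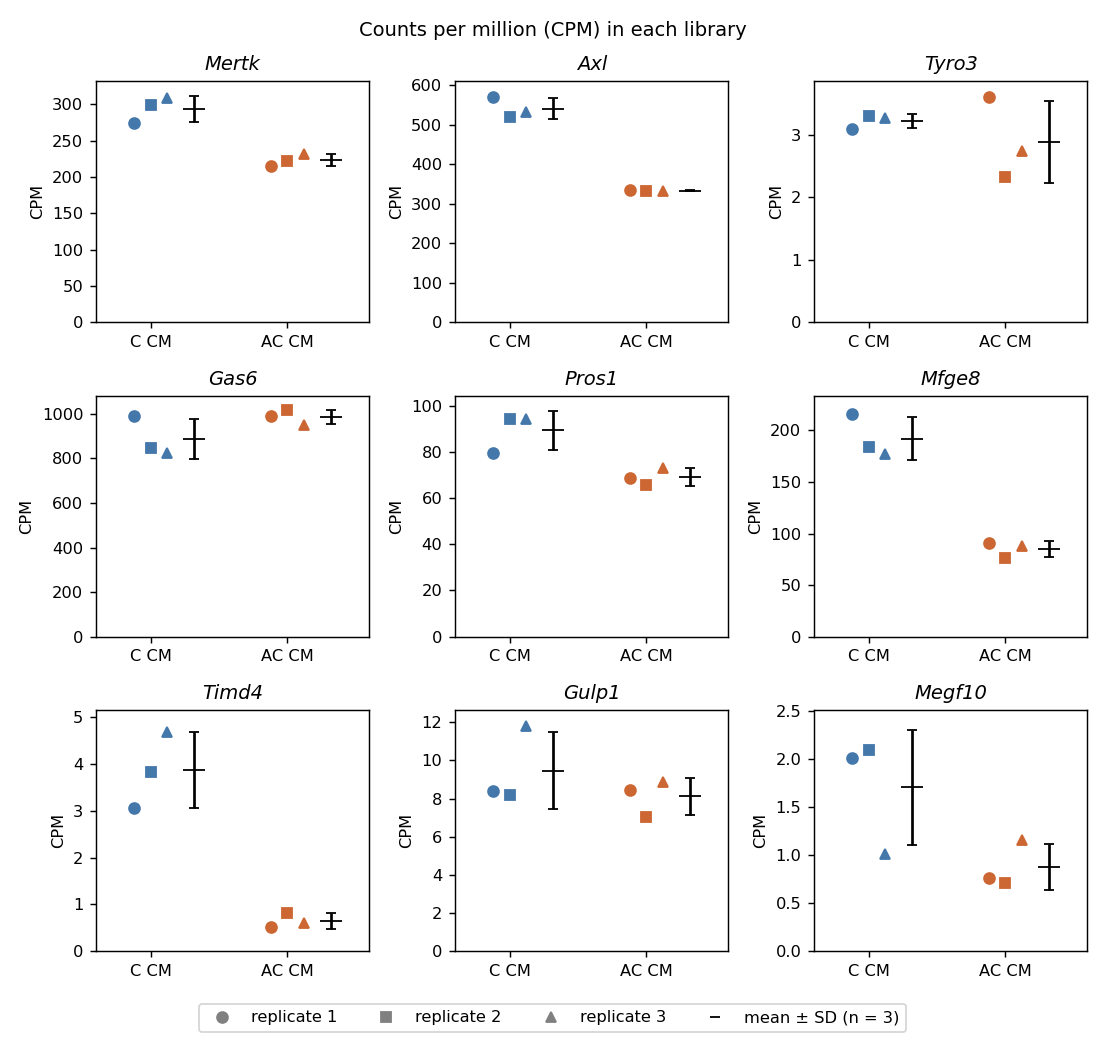
CPM in each of the 6 libraries for the 9 members, with replicates as symbols and the mean ± SD (n = 3) as black bars on axes that start at 0. The groups do not overlap for Mertk, Axl, Pros1, Mfge8 and Timd4, and overlap for Tyro3, Gas6, Gulp1 and Megf10. Groups likewise did not overlap for 44.7% of all genes tested.

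The promoters of the 3 members with the largest calls and of Gas6, which was not called, are shown to set the sequence at their start sites beside their expression. They are RefSeq windows of GRCm38.p6, from 250 bases before to 50 bases after the start, written 5′ to 3′ on the gene's strand. Capitals mark the GC box (GGGCGG on either strand) and, in Timd4, the nuclear receptor half-site (AGGTCA on either strand). Axl lies at chr7:25788684-25788983 (minus strand), Mfge8 at chr7:79149011-79149310 (minus), Timd4 at chr11:46810549-46810848 (plus) and Gas6 at chr8:13494486-13494785 (minus).
Axl: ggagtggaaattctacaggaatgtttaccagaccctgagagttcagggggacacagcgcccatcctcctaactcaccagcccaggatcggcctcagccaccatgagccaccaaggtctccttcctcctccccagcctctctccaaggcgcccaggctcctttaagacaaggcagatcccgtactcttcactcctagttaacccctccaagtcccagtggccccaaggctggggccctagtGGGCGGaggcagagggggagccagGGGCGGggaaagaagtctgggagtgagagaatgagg
Mfge8: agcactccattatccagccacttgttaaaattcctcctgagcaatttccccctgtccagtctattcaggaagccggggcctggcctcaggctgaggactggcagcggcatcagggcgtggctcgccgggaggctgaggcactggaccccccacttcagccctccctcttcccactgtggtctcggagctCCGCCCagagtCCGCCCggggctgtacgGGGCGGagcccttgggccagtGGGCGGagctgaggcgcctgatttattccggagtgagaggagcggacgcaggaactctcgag
Timd4: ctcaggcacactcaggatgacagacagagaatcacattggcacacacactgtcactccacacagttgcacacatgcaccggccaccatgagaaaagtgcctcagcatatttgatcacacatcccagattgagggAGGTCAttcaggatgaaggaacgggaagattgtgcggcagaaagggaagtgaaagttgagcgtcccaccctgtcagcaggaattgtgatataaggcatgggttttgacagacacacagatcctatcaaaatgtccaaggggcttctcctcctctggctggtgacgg
Gas6: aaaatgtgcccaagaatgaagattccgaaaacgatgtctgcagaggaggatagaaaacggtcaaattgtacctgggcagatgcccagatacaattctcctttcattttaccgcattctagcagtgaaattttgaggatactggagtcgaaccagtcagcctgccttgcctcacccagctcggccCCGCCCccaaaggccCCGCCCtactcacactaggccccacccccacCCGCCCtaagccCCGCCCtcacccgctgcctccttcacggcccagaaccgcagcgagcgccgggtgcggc

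A window was held for 8 members, all but Megf10. The GC box was found in 7 of these 8 windows, against 35.7% of the 32851 promoter windows of the same length. Axl had 2, the first 10 bases before the start, and Mfge8 and Gas6 had 4 each, all within 66 bases before it. Mertk had 4, Pros1 5, Tyro3 6 and Gulp1 1. Timd4 had none and held 5 CpG dinucleotides and 50.7% G and C, close to the median of all windows (7 CpG and 52.7%). The windows of Mertk, Axl, Gas6, Pros1 and Mfge8 held 58.3% to 66.7% G and C, that of Gulp1 57.7% and that of Tyro3 73.3%. The Axl window held 6 CpG, also below the median. The half-site was in the Timd4 window alone among the 8 (16.3% of all windows), 116 bases before the start. The core of a PU.1 site (GAGGAA on either strand) was in the Axl and Mfge8 windows (28.3% of all windows). No window of the 8 held a TATA box (TATAAA, 13.6%), an AP-1 site (TGANTCA, 7.81%) or an E box (CACGTG, 7.15%). GC boxes were thus held by called members (Mertk, Axl, Pros1 and Mfge8) and by uncalled ones (Gas6, Tyro3 and Gulp1) alike. Among the 8 windows only that of Timd4 lacked a GC box, and a link between these letters and expression was not tested. A match is a run of letters, and none of these windows was assayed for binding.

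Axl (ENSMUSG00000002602.16, chromosome 7, 25757273 to 25788705, minus strand) was the most abundant receptor gene of the set. It stood at 569, 518 and 531 CPM in C CM replicates 1, 2 and 3, and at 334, 331 and 333 CPM in the AC CM replicates. Every AC CM library lay below every C CM library, and the AC CM libraries were within 3 CPM of each other. The mean fell from 539 ± 26.5 to 332 ± 1.43 CPM (SD, n = 3), which is -0.70 on the log2 scale (SE 0.06, adjusted p = 6.75e-05 by edgeR). Of all genes tested, 44.7% likewise had groups that did not overlap. When AC CM replicates 2 and 3, the libraries with the most hepatocyte transcripts, were both dropped, Axl was at -0.70 (adjusted p = 0.0211). There the spread comes from the C CM libraries alone and is taken to hold for the single AC CM library. Fibroblast markers (5 of 8 lower, 3 not called) and dendritic cell markers (6 of 7 lower, 1 not called) also differed between the groups. The part of these cells in the Axl result was not tested.

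Mertk (ENSMUSG00000014361.5, chromosome 2, 128698956 to 128802894, plus strand), the kinase most tied to corpse uptake by macrophages, was at 274, 299 and 308 CPM after C CM. It was at 215, 223 and 232 CPM after AC CM, again with no overlap. The means were 294 ± 17.6 and 223 ± 8.43 CPM, and the log2 fold change was -0.40 (SE 0.07, adjusted p = 0.00277 by edgeR). When AC CM replicates 2 and 3 were both dropped, the value was -0.45 and the call was lost (adjusted p = 0.0896). The genes Gm14011 and Gm23172 lie inside Mertk, with 0 to 3 and 2 to 23 counts per library beside the 15173 to 20653 of Mertk.

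Tyro3 (ENSMUSG00000027298.17, chromosome 2, 119797733 to 119818104, plus strand), the family member best known from the nervous system, was nearly silent here. It had 203, 226 and 219 counts after C CM and 254, 179 and 218 after AC CM. The AC CM libraries fell on both sides of the C CM libraries. The mean was 3.22 ± 0.111 CPM after C CM and 2.88 ± 0.658 after AC CM, and the log2 fold change was -0.16 (SE 0.21, adjusted p = 0.622 by edgeR). Its direction rests on 1 or 2 libraries: it was -0.36 without AC CM replicate 1 and 0.16 when AC CM 1 was the single AC CM library kept.

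The balance between the receptor genes was read within each library, where it does not depend on scaling between libraries. Per kilobase of exon, Axl made up 63.9%, 59.7% and 59.6% of TAM receptor counts in C CM replicates 1, 2 and 3, and 56.9%, 56.0% and 55.1% in the AC CM replicates. The Mertk share was 35.8%, 40.0% and 40.1% after C CM and 42.6%, 43.7% and 44.6% after AC CM. The Tyro3 share was 0.282% to 0.309% after C CM and 0.318% to 0.499% after AC CM. The log2 ratio of Axl to Mertk counts was 0.88 ± 0.15 after C CM and 0.57 ± 0.06 after AC CM (n = 3), so that Axl was lower relative to Mertk in every AC CM library. By a two-sided exact permutation test p = 0.1, the smallest that 3 libraries against 3 allow, and 0.109 after Benjamini-Hochberg adjustment over the 12 within-library quantities computed.

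Gas6 (ENSMUSG00000031451.6, chromosome 8, 13465374 to 13494490, minus strand), the ligand that activates all TAM kinases, was the most abundant member. It was at 991, 848 and 825 CPM in C CM replicates 1, 2 and 3, and at 988, 1017 and 951 CPM in the AC CM replicates. The high C CM replicate 1 lies among the AC CM libraries, and the other C CM libraries lie below all of them. The means were 888 ± 90.1 and 985 ± 33.4 CPM, and the log2 fold change was 0.15 (SE 0.08, adjusted p = 0.194 by edgeR). Without C CM replicate 1, Gas6 was higher after AC CM by 0.24 (SE 0.04, adjusted p = 0.00312). Leaving out any other single library gave 0.10 to 0.18 with adjusted p between 0.260 and 0.447. The gene Tmem255b overlaps the 3′ end of Gas6 on the other strand, with 99 to 180 counts per library beside the 55249 to 78670 of Gas6.

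Pros1 (ENSMUSG00000022912.8, chromosome 16, 62854307 to 62929346, plus strand) encodes protein S, an anticoagulant made mainly in the liver that also binds MERTK and TYRO3. It was at 79.5, 94.2 and 94.0 CPM after C CM and at 68.5, 65.7 and 73.0 CPM after AC CM. The groups did not overlap, though C CM replicate 1 lay closer to the AC CM libraries than to the rest of its group. The means were 89.2 ± 8.45 and 69.1 ± 3.72 CPM and the log2 fold change was -0.37 (SE 0.09, adjusted p = 0.0129 by edgeR). The call was lost without AC CM replicate 2 (-0.33, adjusted p = 0.0603) and when AC CM replicates 2 and 3 were both dropped (-0.39, adjusted p = 0.203). Those 2 libraries were the highest in hepatocyte markers. Pros1 was at 65.7 and 73.0 CPM in AC CM replicates 2 and 3 and at 68.5 CPM in AC CM replicate 1. The part of hepatocyte transcripts in the Pros1 result was not tested.

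Mfge8 (ENSMUSG00000030605.15, chromosome 7, 79133768 to 79149060, minus strand), the bridge to integrins, was at 215, 183 and 177 CPM after C CM. After AC CM it was at 90.5, 75.8 and 87.8 CPM, under the lowest C CM library by a wide margin. The mean fell from 192 ± 20.6 to 84.7 ± 7.80 CPM, which is -1.18 on the log2 scale (SE 0.10, adjusted p = 5.75e-05 by edgeR). Of all genes tested, 5.4% had a lower log2 fold change, and 4.14% were called at least 2-fold lower. Mfge8 is also expressed by dendritic cells and fibroblasts. After AC CM 6 of 7 dendritic cell markers and 5 of 8 fibroblast markers were called lower. The fibroblast markers Dcn, Lum and Postn were not called, at 0.11, 0.51 and -0.0006 on the log2 scale. The part of these cells in the Mfge8 result was not tested.

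The mix of ligand genes was read within each library and compared between the groups. The shares in a library make up a whole, so they do not move independently of each other. Per kilobase of exon, Gas6 made up 85.6%, 84.3% and 84.2% of the counts of Gas6, Pros1 and Mfge8 in the C CM replicates and 91.5%, 92.5% and 91.1% in the AC CM replicates. Mfge8 went from 10.1%, 9.89% and 9.81% to 4.55%, 3.74% and 4.57%. Pros1 shares overlapped, at 4.28% to 5.98% after C CM and 3.72% to 4.36% after AC CM (exact permutation p = 0.2, two-sided). The ratio of Gas6 to the summed TAM receptor counts, both per kilobase, was 1.99 ± 0.192 after C CM and 3.28 ± 0.153 after AC CM (n = 3), with every AC CM library above every C CM library. The groups did not overlap for the Gas6 share, the Mfge8 share and this ratio (each p = 0.1 by the exact permutation test, the smallest possible, and 0.109 adjusted over the 12 quantities).

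**Figure D2:**
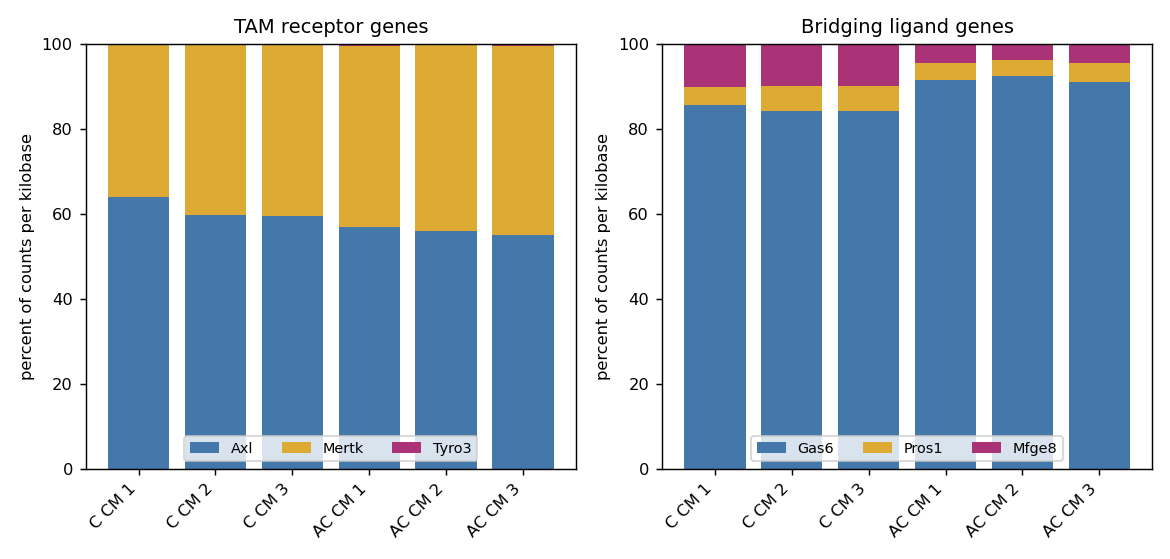
Stacked bars give, for each library, the percent of counts per kilobase of exon held by each TAM receptor gene (left) and each bridging ligand gene (right). The Axl share was 59.6% to 63.9% after C CM and 55.1% to 56.9% after AC CM, the Gas6 share 84.2% to 85.6% and 91.1% to 92.5%, and Tyro3, under 0.5%, is too thin to be seen.

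Timd4 (ENSMUSG00000055546.6, chromosome 11, 46810800 to 46844332, plus strand), the direct phosphatidylserine receptor of many tissue-resident macrophages, was low in these cultures. It had 201, 262 and 314 counts after C CM and 36, 64 and 48 after AC CM. That is 3.07, 3.83 and 4.69 CPM against 0.511, 0.827 and 0.602 CPM, with no overlap. The log2 fold change was -2.57 (SE 0.27, adjusted p = 2.30e-04 by edgeR), and 0.8% of all genes tested had a lower one. It ranged from -2.92 to -2.41 over 17 other settings. Timd4 is expressed by some dendritic cells as well as by macrophages. The summed CPM of dendritic cell, of lymphocyte and of neutrophil markers was lower in every AC CM library than in every C CM library. The part of these cells in the Timd4 result was not tested.

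Gulp1 (ENSMUSG00000056870.9, chromosome 1, 44551511 to 44796838, plus strand) was at 8.42, 8.17 and 11.8 CPM after C CM and 8.43, 7.02 and 8.89 CPM after AC CM. The groups overlapped, and the log2 fold change was -0.22 (SE 0.17, adjusted p = 0.396 by edgeR). Megf10 (ENSMUSG00000024593.15, chromosome 18, 57133090 to 57297467, plus strand) had 132, 143 and 68 counts after C CM and 54, 55 and 92 after AC CM. Its C CM replicate 3 lay below AC CM replicate 3, and the log2 fold change of -0.96 did not pass (SE 0.36, adjusted p = 0.0797 by edgeR). Without C CM replicate 3 it was at -1.22 with an adjusted p of 0.0312.

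**Figure D3:**
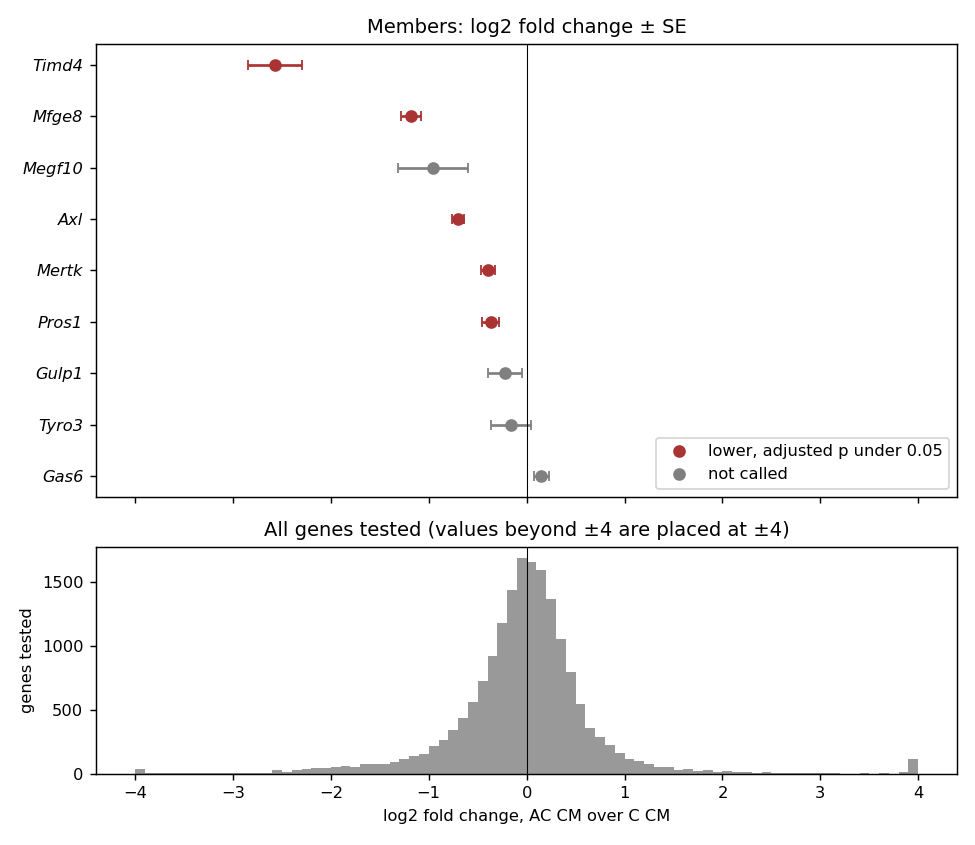
The upper panel gives the log2 fold change (AC CM over C CM) ± SE of each member, red where the adjusted p was under 0.05, and the lower panel the distribution over the 17863 genes tested. Timd4 (-2.57) and Mfge8 (-1.18) lie in the lower tail of that distribution, and Gas6 (0.15) is the only member above 0.

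The authors' deposited table gives the same order of changes. It rests on the same 6 libraries, so it is not independent of the values above. In the authors' deposited table Timd4 is at -2.57, Mfge8 at -1.17, Axl at -0.69, Mertk at -0.39 and Pros1 at -0.36. The authors' deposited table has an adjusted p of 1.42e-13 for Timd4, 1.02e-25 for Mfge8, 6.21e-20 for Axl, 2.03e-05 for Mertk and 0.00267 for Pros1. In the authors' deposited table Gas6 is at 0.16 (adjusted p = 0.275) and Megf10 at -0.95 (adjusted p = 0.114).

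To set genes beside each other, CPM was divided by the length of all exons of a gene. After C CM the order was Gas6 at 349 ± 35.3 CPM per kilobase, Axl at 107 ± 5.27, Mertk at 67.8 ± 4.05, Mfge8 at 40.9 ± 4.39 and Pros1 at 21.8 ± 2.07. Then came Gulp1 at 2.52 ± 0.538, Timd4 at 1.78 ± 0.373, Tyro3 at 0.520 ± 0.0179 and Megf10 at 0.221 ± 0.0777. No neighbours in this order overlapped over the 3 libraries, although Gulp1 (2.17 at its lowest) and Timd4 (2.16 at its highest) nearly touched. After AC CM Gas6 led at 387 ± 13.1, followed by Axl at 66.1 ± 0.285 and Mertk at 51.5 ± 1.94. Mfge8 at 18.0 ± 1.66 and Pros1 at 16.9 ± 0.910 then overlapped, as did Tyro3 at 0.465 ± 0.106 and Timd4 at 0.298 ± 0.0750. Timd4 thus ranked below Tyro3 on the mean after AC CM, and the level of Mfge8 was no longer apart from that of Pros1.

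**Figure D4:**
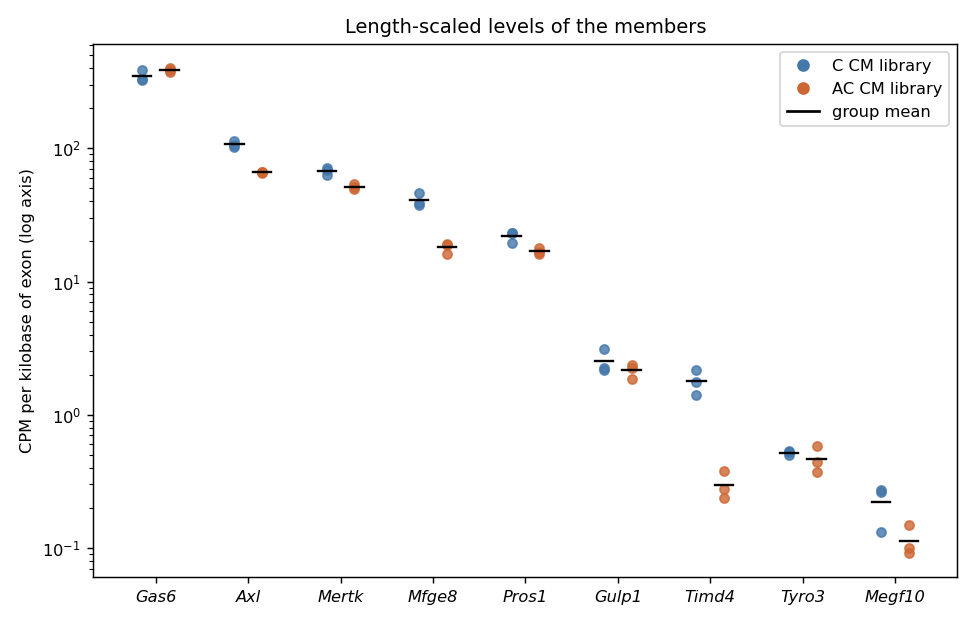
CPM per kilobase of exon of the 9 members on a log axis, with each library as a point and group means as black lines, ordered by the C CM mean. Gas6 (349 and 387) lies above all other members in both groups, and Timd4 drops from 1.78 to 0.298.

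Genes with the closest pattern were those with the smallest root mean square difference from a member in log2 CPM centred on each gene's mean, over the 6 libraries and 10305 genes. For Axl these were Zfhx3 (0.023), Pnpla7 (0.031) and Slco2b1 (0.037), and for Mertk Aktip (0.024), Dtx3l (0.025) and Zc3h12d (0.028). Mfge8 was closest to Tmem51 (0.024), then Zer1 (0.065), Pros1 to Homez (0.025) and Gas6 to Coro1c (0.017). The 6 libraries form 2 groups, so closeness here mostly restates a like fold change: Tmem51 was at -1.18, Zfhx3 at -0.67 and Aktip at -0.43.

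The wider pathway was read from 9 lists of 92 genes, 88 of them tested, whose counts are set against 13.3% of all genes higher and 13.3% lower. Over all lists 22.7% rose (20 genes), 23.9% fell (21 genes) and 47 genes were not called. The median log2 fold change was 0.04. Among 14 genes tested on the list of other phosphatidylserine receptors, 5 rose, 6 fell and 3 did not pass (median -0.20). That list also holds integrin chain genes such as Itgav, Itgb3 and Itgb5, so not all of its products bind the lipid directly. Stab2, a stabilin that binds phosphatidylserine directly, fell from 28.9, 30.0 and 31.2 CPM to 8.67, 8.84 and 8.79 CPM (log2 fold change -1.78, SE 0.09). Stab2 is also a gene of sinusoidal endothelium, and the endothelial markers Pecam1 and Cdh5 were 3.79-fold and 3.81-fold lower, while Kdr was at 1.46. Their part in the Stab2 result was not tested. Cd300lf, a lipid-binding receptor with inhibitory motifs, rose from 24.4, 25.4 and 25.8 CPM to 51.8, 46.0 and 51.9 CPM (0.98, SE 0.08). Among the partners of MFG-E8, Itgav rose by 0.66 from 82.5 ± 5.46 to 131 ± 2.08 CPM, while its beta chains Itgb3 and Itgb5 were at -1.78 and -0.52. Itgb5 was no longer called once AC CM replicates 2 and 3 were dropped, at -0.54 (adjusted p = 0.0620). The scavenger receptor gene Cd36 was at 1.39, and Stab1, at 1721 ± 78.3 and 1848 ± 120 CPM, did not pass (adjusted p = 0.296 by edgeR).

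Of 11 other bridging and opsonin genes 1 rose, 1 fell and 9 did not pass (median -0.10). Thbs1, which bridges dying cells to CD36, fell from 2626, 2587 and 2665 CPM to 1946, 2092 and 1992 CPM (log2 fold change -0.39, SE 0.05). It was no longer called once AC CM replicates 2 and 3 were dropped, at -0.44 (adjusted p = 0.0828). Anxa5, whose product coats phosphatidylserine, was called at 0.25, but leaving out AC CM replicate 1 gave an adjusted p of 0.0550, and leaving out AC CM replicate 2 gave 0.0548. The complement genes C1qa (-0.07), C1qb (-0.14) and C1qc (-0.13) did not pass. C3, the central complement component, was at 168, 161 and 154 CPM after C CM and 35.7, 84.1 and 99.0 CPM after AC CM. The groups did not overlap, but the log2 fold change of -1.14 did not pass (SE 0.40, adjusted p = 0.109 by edgeR). Hepatocyte markers summed to 53.2, 618 and 1450 CPM in AC CM replicates 1, 2 and 3, the same order as C3 in these libraries. The part of hepatocyte transcripts in the C3 result was not tested. C3 was called by DESeq2 (adjusted p = 0.0336), without AC CM replicate 1 (-0.82, adjusted p = 0.00141 by edgeR) and with that library as the single AC CM library kept (-2.17, adjusted p = 3.45e-04).

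Of 17 genes of the engulfment machinery 5 rose, 3 fell and 9 did not pass (median 0.08). Vav3, a guanine nucleotide exchange factor, rose from 53.2, 73.8 and 69.4 CPM to 140, 138 and 148 CPM (log2 fold change 1.12, SE 0.11). Elmo1, which with DOCK proteins activates RAC1, rose from 88.7, 97.1 and 86.4 CPM to 138, 143 and 141 CPM (0.63, SE 0.07). Ptk2b rose by 0.42 and Rac2 was at -0.41, and neither was called once AC CM replicates 2 and 3 were dropped, at 0.34 and -0.39 (adjusted p = 0.163 and 0.141). Dock2 at 397 ± 32.1 and 419 ± 6.44 CPM did not pass.

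Of 5 genes for the sheddases that cut MERTK and AXL from the surface and for their control, 1 rose and 4 did not pass (median 0.18). The rise was in Timp3, an inhibitor of ADAM17, from 275, 251 and 311 CPM to 478, 509 and 482 CPM (log2 fold change 0.81, SE 0.08). Adam10 was at 0.18 and Adam17 at 0.25, neither called, with Adam17 at 256 ± 84.8 and 305 ± 77.2 CPM. Of 6 genes of the vitamin K cycle, which GAS6 and protein S need for their lipid-binding domain, 1 rose and 5 did not pass (median 0.14). That gene was Nqo1 (2.11 ± 0.297 to 3.39 ± 0.332 CPM), whose call was lost without any single library (adjusted p between 0.0527 and 0.109). Of 9 scramblase and flippase genes tested 2 rose and 7 did not pass (median 0.24). Tmem30a, the flippase subunit gene, was at 0.26 and Plscr3 at 0.27. The Tmem30a call was lost without C CM replicate 2 or any AC CM replicate (adjusted p between 0.0560 and 0.0794). The Plscr3 call was lost without any single library other than C CM replicate 1 (adjusted p between 0.0970 and 0.140).

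Of 8 genes tied to the TAM brake on cytokine signalling 4 fell, 1 rose and 3 did not pass (median -0.62). Socs3, a cytokine signal suppressor, fell from 22.6, 17.7 and 18.1 CPM to 10.7, 11.0 and 10.3 CPM (log2 fold change -0.87, SE 0.12). The transcription factor gene Nr4a1 was at -0.66. Without AC CM replicates 2 and 3 neither of these genes was called, with Socs3 at -0.87 (adjusted p = 0.0607) and Nr4a1 at -0.68 (adjusted p = 0.125). Of 12 transcription factor genes named as inducers of Mertk, Axl, Mfge8 or Timd4, 5 fell, 2 rose and 5 did not pass (median -0.19). Ppard, a lipid-sensing nuclear receptor that induces clearance genes, fell from 39.3, 32.5 and 33.8 CPM to 17.6, 17.9 and 18.3 CPM (-0.97, SE 0.10). Its relative Pparg moved the other way, from 44.0, 53.0 and 47.1 CPM to 70.5, 68.5 and 71.8 CPM (0.55, SE 0.08). Their common partner gene Rxrb was at -0.57 and the lysosome regulator gene Tfeb at -0.71. Nr1h2, which encodes LXR beta, was at -0.29 and did not pass (adjusted p = 0.0626 by edgeR). By DESeq2, Nr1h2 was called lower (-0.285, adjusted p = 0.0457). Without AC CM replicates 2 and 3 neither Pparg nor Rxrb was called, at 0.55 and -0.53 (adjusted p = 0.0728 and 0.116).

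Of 6 genes of signals that restrain phagocytosis 2 rose, 2 fell and 2 did not pass (median -0.14). Lilrb4a, an inhibitory receptor gene, rose from 190, 268 and 264 CPM to 742, 710 and 723 CPM (log2 fold change 1.59, SE 0.12). Its symbol is held by 2 rows, of which the row with more counts was used, and it has a close paralog, so reads may be split. Sirpa, the receptor for CD47, was at 0.40 (1922 ± 38.3 to 2528 ± 32.4 CPM), and Cd24a fell from 10.2 ± 1.58 to 2.23 ± 0.213 CPM. Cd24a is also a gene of neutrophil precursors and B cells, whose markers were lower as given above, and their part in its fall was not tested. Cd47 itself, at 312 ± 17.7 and 311 ± 14.9 CPM, did not pass. Sirpa was not called when AC CM replicates 2 and 3 were dropped, at 0.38 (adjusted p = 0.109).

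**Figure D5:**
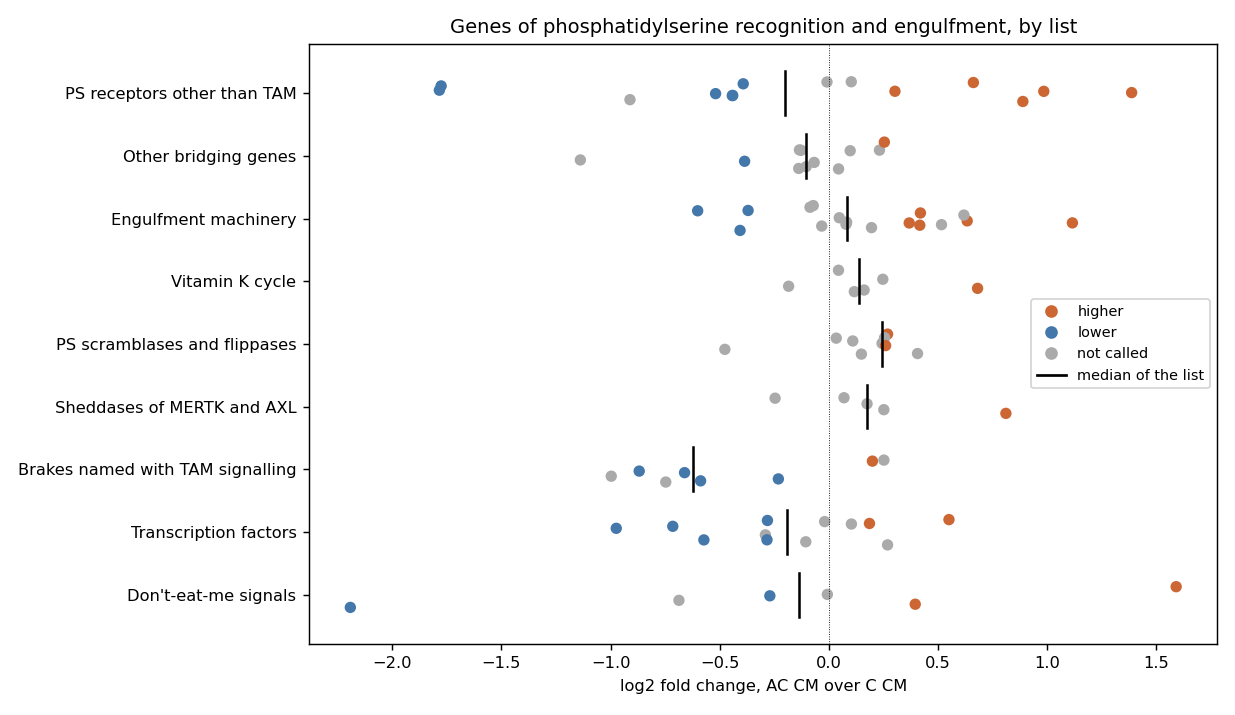
Each point is a gene of 1 of the 9 lists at its log2 fold change (AC CM over C CM), coloured by its call, with the median of each list as a black line and a random vertical offset within a list. The list on the brake of TAM signalling has the lowest median (-0.62). The list of other phosphatidylserine receptors, which also holds integrin chains, reaches from -1.78 (Itgb3 and Stab2) to 1.39 (Cd36).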

How the data were processed

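The deposited table holds raw read counts per gene for 6 libraries, which the authors left without normalization. A second block of columns that the authors deposited holds normalized signal, each library's counts over 1 constant, and was not used. The log2 fold changes and p-values (raw and adjusted) in the authors' deposited comparison were only quoted. The submitters' processing notes list R 3.4.3, DESeq2 1.18.1, HISAT2 2.1.0 and fastp 0.17.1 without saying what each did. The sources used here do not name the counting program, its strand setting or the build, so reads of genes that overlap on opposite strands may not be separated. All 49035 identifiers also found in GENCODE M21 (GRCm38) had the same coordinates there, and exon lengths were taken from it. Low counts favoured multiples of 4 (394 to 446 genes with a count of 3 and 696 to 814 with 4 in a library), so counts divided by 4 were also tried.

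edgeR 4.0.16 (R 4.3.3) was used with filterByExpr, TMM scaling and its quasi-likelihood test (robust option), in a model of group alone. Benjamini-Hochberg adjustment ran over all 17863 genes tested. The SE is the log2 fold change divided by the root of the F statistic. Alternatives were DESeq2 1.42.0, limma-voom (limma 3.58.1), other scalings and filters, the replicate number as a block, removal of the 20 genes with the most counts, each library left out in turn, and AC CM replicates 2 and 3 left out. The procedure was tested on simulated data. The members, lists and alternatives were chosen with earlier results of these data known. Genes named are the 9 members, up to 4 called genes of a list with the smallest p, list genes that were not called and had a mean of 50 CPM or more in a group, markers, the 3 closest genes to each member with a mean of at least 5 CPM, and genes that overlap a member. Itgav and Itgb5, called but not among the 4 smallest p, fall outside this rule and were chosen after their values were seen. A gene that the rule names is not reported here.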

Additional observations from a re-analysis of the deposited data

How the results depend on the processing

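Axl, Mfge8 and Timd4 stayed lower and past the threshold in all 17 alternatives, at -0.73 to -0.66, -1.24 to -1.09 and -2.92 to -2.41 on the log2 scale. Mertk stayed lower in all 17, at -0.45 to -0.36, and lost its call in 1. Pros1 stayed lower in all 17, at -0.44 to -0.33, and lost its call in 2. With AC CM replicates 2 and 3 left out, 3 members were called lower (Axl, Mfge8 and Timd4), 8 list genes higher, 6 list genes lower and 1274 genes over the whole table, against 5, 20, 21 and 4741. That fit has fewer samples and a lone AC CM library. Leaving out 1 library at a time gave 3158 (without AC CM replicate 3) to 5023 genes called over the whole table, 4 to 6 members lower, 0 to 1 member higher, and 14 to 21 list genes higher and 17 to 22 lower. Other scalings, filters and tools gave 5 members lower and 0 higher. The replicate numbers did not pair the libraries: same-numbered libraries correlated at -0.116, -0.031 and -0.014 in their deviations from the group means. With the replicate block 4397 genes, 5 members lower and 0 higher were called, and Adam17, not called otherwise, was called at 0.28 (adjusted p = 0.0362). The depth leaves Timd4, Tyro3 and Megf10 at 36 to 314 counts per library, where small differences would not be detectable.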
